A study of Homo sapiens with 12 samples.

Results

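The genes described here control entry into S phase, DNA replication and mitosis, and were measured by RNA-seq in 2 liver cancer cell lines after knockdown of the long noncoding RNA FASRL. The 60 members are cyclins, cyclin-dependent kinases and their inhibitors, E2F factors, replication licensing and fork proteins, nucleotide enzymes and mitotic genes chosen by name, and a member was kept where its symbol was among the 8842 genes listed in the deposited tables. There were 41 listed members of 60: 24 of 37 assigned to G1/S and 17 of 23 assigned to G2/M. The 19 members not listed were CCND1, CCND2, CDK2, E2F3, ORC1, ORC6, MCM2, MCM6, CDC45, GINS2, RFC3, RFC4, RRM2, CDC25C, MAD2L1, CENPE, KIF11, KIF20A and MKI67, so nothing is said of cyclin D1 or of the proliferation marker Ki-67. HepG2 and LM3, 2 human lines that carry the label of hepatocellular carcinoma, received either siFASRL, the siRNA that targets this RNA, or the control siNC, and RNA was harvested 48 h after transfection. The 4 groups, HepG2 siNC, HepG2 siFASRL, LM3 siNC and LM3 siFASRL, had 3 libraries each, 12 in all. No time other than 48 h was sampled, and the labels do not say which siRNA sequence was used or whether replicates were separate cultures, so the tests measure the spread between these libraries, which may be technical. FASRL was not listed, so its own level could not be used to check the labels.

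Cyclin D with CDK4 or CDK6, and then cyclin E with CDK2, phosphorylate the retinoblastoma protein and free E2F factors, which switch on genes for DNA synthesis. In G1 the origin recognition complex, CDC6 and CDT1 load the MCM helicase onto origins, and in S phase PCNA clamps the polymerases to the template. Mitotic genes are expressed later, through the MuvB complex with B-MYB and FOXM1 at CHR elements and through NF-Y at CCAAT boxes, and their products build the spindle and destroy cyclin B at anaphase.

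Expression was given by the authors as a normalized RSEM level, for which neither FPKM nor TPM is stated, and the sums of the listed levels lay between 316534 and 355094 per library. Fold changes below are differences of mean log2(level + 1), siFASRL minus siNC, from limma. In HepG2 the hepatocyte markers ALB (851, 805 and 789.8 in the siNC libraries), AFP (632, 616 and 567) and TF (501, 448 and 437) were high. LM3 siNC libraries listed ALB at 0.06, 0.62 and 0.4 and AFP at 0.04, 0.45 and 0.39, and 7 or 8 of the 10 listed hepatocyte markers were below 1 in each LM3 library, so the secretory markers that define hepatocytes were near 0 there, while HNF4A (14.4, 14.4 and 14.2) and KRT18 (855, 998 and 969) were present. The 10 listed hepatocyte markers of 12 summed to 4714, 4713 and 4364 in HepG2 siNC and 2607, 2505 and 2520.2 in HepG2 siFASRL, with SERPINA1 the most abundant, and 9 of the 10 fell. They summed to 869.9, 1016 and 986 in LM3 siNC and 736, 791 and 762 in LM3 siFASRL, with KRT18 the most abundant, and at least 1 was listed at 0 in 5 of the 6 LM3 libraries. Only HNF4A and KRT18 were tested in LM3, and both fell, to 46.8% and 80.4% of siNC (changes of -0.998 and -0.31). Of 12 markers of fibroblasts, blood and endothelial cells, 6 were listed, and they summed to 179, 174 and 176 in HepG2 siNC against 125.1, 113 and 114 in HepG2 siFASRL. In LM3 they summed to 29.6, 25.0 and 25.7 under siNC and 21.4, 21.9 and 22.0 under siFASRL. LYZ or CD68 was the most abundant, DCN and VWF were below 1 in mean in each group, and PTPRC, CD3E, CD14, PECAM1, CDH5 and COL1A2 were not listed. The part of these markers' changes in the results below was not tested.

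After siFASRL, G2/M members were more often higher than lower in both lines, and G1/S members were more often lower than higher in HepG2. In LM3 the G1/S members leaned the same way as deposited, with 11 lower and 7 higher (45.8% and 29.2%, close to the 43.5% and 33.9% of all tested genes), and with 14 and 6 under quantile normalization, but not under median-of-ratios scaling or with libraries centred on their median (an alternative added after the data were seen), with 7 lower and 8 higher under each. In HepG2, 17 of 41 members were lower and 20 higher at adjusted p under 0.05, beside 44.3% and 44.8% of the 8144 tested genes. Members were thus called in either direction about as often as the tested genes, whose list holds few small decreases in HepG2 (below). Split by phase, 15 of 24 G1/S members fell and 6 rose, while 2 of 17 G2/M members fell and 14 rose. In LM3, 13 members were lower and 17 higher, beside 43.5% and 33.9% of 7483 tested genes, and 2 G2/M members were lower and 10 higher. Past an absolute log2 fold change of 1 as well, 1 member was lower and 2 were higher in HepG2, beside 6.79% and 3.61% of tested genes. In LM3 the limma counts past that size were 0 and 1, beside 6.2% and 1.42%, and no LM3 change of a member was below -0.99, that of CCNE2, at any p.

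The median change of the 24 G1/S members was -0.43 in HepG2 and -0.17 in LM3, and that of the 17 G2/M members was 0.23 and 0.17, where the median over all tested genes was 0.10 in HepG2 and -0.062 in LM3. Relative to that median of all genes, the G1/S members stood at -0.53 in HepG2 and -0.10 in LM3, and the G2/M members at 0.13 and 0.23. Under quantile normalization these distances were -0.52 and -0.22 for G1/S and 0.078 and 0.031 for G2/M. In LM3 the G2/M members then stood close to the tested genes. Median-of-ratios scaling moved the median of all LM3 genes by 0.11, and centring the libraries moved it by 0.12. Under both scalings of LM3, 13 G2/M members were higher in place of 10, and 27.6% of called members were lower in place of 43.3%. Of all called LM3 genes 56.2% were lower, against 46.7% under median-of-ratios scaling and 45.7% with centred libraries. RRM1, CCNB1, CCNB2 and TPX2, not among the 17 members higher in LM3, were called higher there under both scalings. Quantile normalization kept 7 of the 14 G2/M rises in HepG2 and 7 of 10 in LM3. This is 41.2% of G2/M members in each line, beside 43.7% and 37.6% of tested genes. Rises were then about as frequent as among the tested genes, while 11.8% of G2/M members were lower beside 40.3% and 34.5%. Quantile normalization left 60% of called members lower in HepG2 in place of 45.9% and 55.2% in LM3. The sign of both medians was kept in each line under each scaling run.

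In each siFASRL library the median of the G1/S members was below that of the G2/M members. The median G1/S deviation from the siNC mean was -0.43, -0.41 and -0.42 in the HepG2 siFASRL libraries, while the median G2/M deviation was 0.25, 0.28 and 0.21. In LM3 siFASRL the G1/S medians were -0.16, -0.14 and -0.19 and the G2/M medians 0.16, 0.19 and 0.18. The siNC libraries lay between -0.036 and 0.042 in HepG2 and between -0.033 and 0.033 in LM3 for either set. They lie near 0 because differences were taken from their own mean. The siNC and siFASRL libraries did not overlap, but this also held for all tested genes. The medians of all tested genes were 0.071, 0.087 and 0.094 in HepG2 siFASRL, with siNC between -0.00072 and 0.0015. In LM3 siFASRL they were -0.059, -0.059 and -0.060, with siNC between -0.0036 and 0.0039. In bulk RNA, fewer cells in a phase and less RNA per cell cannot be told apart.

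**Figure D1:**
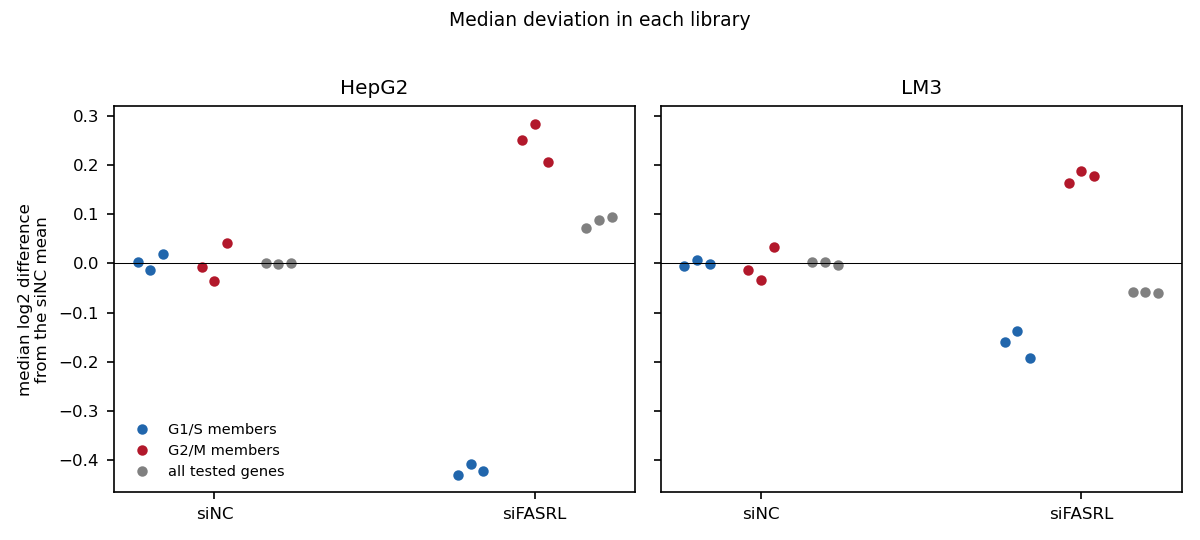
Median log2 difference of each library from the mean of its line's siNC libraries, over the 24 G1/S members (blue), the 17 G2/M members (red) and all tested genes (grey), with 1 point per library. The siFASRL points lie between -0.43 and -0.41 for G1/S and between 0.21 and 0.28 for G2/M in HepG2, and between -0.19 and -0.14 and between 0.16 and 0.19 in LM3.

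The deposited list limits what small decreases can be seen in HepG2. Among 6367 genes with a mean HepG2 level of at least 5, 5 (0.0785%) had a log2 ratio of means between -0.2 and -0.04, against 578 of 5937 (9.74%) in LM3. Few listed genes thus have a small decrease in HepG2, and the counts describe listed members only. The HepG2 shares and median of all tested genes come from this list, as do the HepG2 medians of the members. How far the gap shaped these values was not tested.

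**Figure D2:**
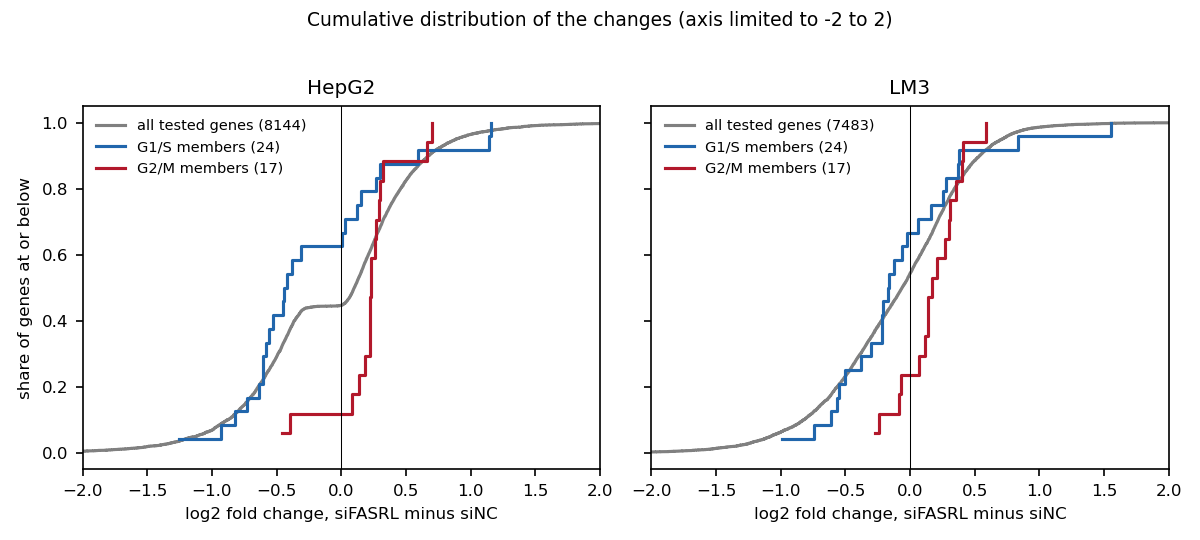
Share of genes at or below each log2 fold change in HepG2 (left) and LM3 (right), for all tested genes (grey), G1/S members (blue) and G2/M members (red). The grey HepG2 curve is flat just below 0, where listed genes are nearly absent, and the blue curve lies left of the red one over most of the range, with medians of -0.43 and 0.23 in HepG2 and -0.17 and 0.17 in LM3 (-0.051 and 0.29 in LM3 under median-of-ratios scaling; -0.47 and 0.13 in HepG2 and -0.19 and 0.060 in LM3 under quantile normalization).

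Promoter sequence was compared between members of the 2 phases. RefSeq windows of 300 bases (GRCh38.p14, 250 before to 50 after an annotated start) matched 48 of 60 members, 31 in G1/S and 17 in G2/M, in 65 windows. Most lie at the outermost start of the gene, but the only window of RB1 lies 172699 bases inside it, that of ORC1 5080 bases, and each of the 3 of CCND3 at least 1347 bases inside. The 2 windows of AURKB lie 350 and 326 bases inside the gene. Windows were searched on both strands for E2F forms (TTTCGCGC, TTTGGCGC, TTTCCCGC or TTTGCCGC), for the CHR element (TTTGAA or TTCGAA) and for CCAAT, and no motif lies inside another, though matches may overlap. An E2F form was in a window of 17 of the 31 G1/S members and of 1 of the 17 G2/M members, CDK1, beside 3.99% of the 27305 genes with a window. A CHR form was in 3 G1/S and 12 G2/M members, beside 19.5% of genes, and CCAAT in 20 and 15, beside 39.7%. Since the motifs follow phase, changes were compared within it. Of the 21 listed G1/S members with a window, the 12 with an E2F form had median changes of -0.58 (HepG2) and -0.26 (LM3), and the 9 without one 0.026 and -0.021 (0.0035 and 0.063 when RB1 and CCND3 were left out for the place of their windows, an alternative added after the data were seen). Changes below 0 were seen in 9 (HepG2) and 8 (LM3) of the 12 with the form, and in 3 and 5 of the 9 without it. Of the 11 listed G2/M members with a window, the 8 with a CHR form had medians of 0.23 and 0.14, and the 3 without one (CCNA2, CCNB1 and AURKB) 0.22 and 0.31. A match describes the letters in the window and says nothing of binding.

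Windows are given for GRCh38.p14. The windows of PCNA (1 of its 2, chr20:5126573-5126872, minus strand) and POLE2 (chr14:49688165-49688464, minus strand) are shown as genes that fell with an E2F form, which starts at -59 and -5 from the window's annotated start. Not all G1/S members with an E2F form fell: as deposited, CDC25A, MCM7 and POLA1 had changes above 0 in both lines, and CDT1 in LM3. CDK1 (1 of its 2 windows, with a start 147 bases inside the gene, chr10:60778228-60778527, plus strand) is shown as the G2/M member with both an E2F form, at -128, and CHR forms, at -69, -13 and 9. CDC20 (chr1:43358731-43359030, plus strand) and PLK1 (chr16:23678639-23678938, plus strand) are shown as genes that rose with CHR and CCAAT letters and no E2F form. TOP2A (chr17:40417847-40418146, minus strand) fell and held CHR letters at -194 and -151 and no E2F form. Sequences run 5′ to 3′ on the gene's strand, and capitals mark each match of the 3 motifs on either strand.
PCNA: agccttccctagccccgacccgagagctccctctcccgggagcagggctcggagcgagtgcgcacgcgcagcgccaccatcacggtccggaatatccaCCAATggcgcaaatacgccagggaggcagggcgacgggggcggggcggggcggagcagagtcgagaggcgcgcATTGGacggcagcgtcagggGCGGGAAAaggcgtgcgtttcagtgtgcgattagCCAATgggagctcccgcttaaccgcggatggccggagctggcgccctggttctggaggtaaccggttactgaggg
POLE2: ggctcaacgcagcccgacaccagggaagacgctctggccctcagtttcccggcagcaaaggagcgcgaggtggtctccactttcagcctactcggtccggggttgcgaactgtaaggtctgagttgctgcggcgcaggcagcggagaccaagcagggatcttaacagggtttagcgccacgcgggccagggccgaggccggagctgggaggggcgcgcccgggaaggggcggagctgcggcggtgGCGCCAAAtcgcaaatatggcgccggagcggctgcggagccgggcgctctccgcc
CDK1: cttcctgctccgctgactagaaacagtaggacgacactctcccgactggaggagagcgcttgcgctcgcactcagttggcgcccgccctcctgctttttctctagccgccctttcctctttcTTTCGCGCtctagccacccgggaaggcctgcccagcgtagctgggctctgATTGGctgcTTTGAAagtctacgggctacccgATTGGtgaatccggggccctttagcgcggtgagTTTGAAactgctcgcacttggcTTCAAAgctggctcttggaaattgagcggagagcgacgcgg
TOP2A: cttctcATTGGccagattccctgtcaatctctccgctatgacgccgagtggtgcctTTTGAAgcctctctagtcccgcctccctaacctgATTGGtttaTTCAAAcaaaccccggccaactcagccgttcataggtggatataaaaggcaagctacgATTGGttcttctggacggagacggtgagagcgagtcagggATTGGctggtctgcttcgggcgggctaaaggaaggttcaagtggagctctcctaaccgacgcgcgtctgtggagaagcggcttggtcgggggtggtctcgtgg
CDC20: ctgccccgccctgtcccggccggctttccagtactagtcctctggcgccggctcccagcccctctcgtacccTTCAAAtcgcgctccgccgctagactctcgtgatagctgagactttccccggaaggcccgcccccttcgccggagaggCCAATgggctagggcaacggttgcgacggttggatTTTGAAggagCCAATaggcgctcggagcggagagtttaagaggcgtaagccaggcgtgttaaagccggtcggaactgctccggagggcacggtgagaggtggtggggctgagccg
PLK1: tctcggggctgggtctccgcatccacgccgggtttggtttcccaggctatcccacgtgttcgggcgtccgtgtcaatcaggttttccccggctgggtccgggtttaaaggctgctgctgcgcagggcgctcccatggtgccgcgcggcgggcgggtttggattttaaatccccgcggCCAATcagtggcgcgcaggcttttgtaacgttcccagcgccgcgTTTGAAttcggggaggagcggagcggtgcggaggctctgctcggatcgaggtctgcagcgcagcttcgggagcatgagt

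Of 11 listed G1/S regulators, 6 fell and 3 rose in HepG2 (54.5% and 27.3%, beside 44.3% and 44.8% of tested genes). In LM3, 5 fell and 3 rose (45.5% and 27.3%, close to the 43.5% and 33.9% of tested genes), and 3 were lower and 3 higher under median-of-ratios scaling. CDK6 (chromosome 7, 92604921 to 92836573 on GRCh38), a cyclin D partner, was at 15.2, 14.8 and 14.2 in HepG2 siNC and 31.9, 33.6 and 35.7 in HepG2 siFASRL. In LM3 its levels were 33.0, 31.6 and 31.2 under siNC and 99.3, 90.5 and 97.0 under siFASRL. Every siFASRL library of CDK6 was above every siNC library of its line, and the log2 fold changes were 1.14 ± 0.061 (SE) and 1.55 ± 0.055 (SE) (limma, adjusted p = 2.34e-07 and 2.42e-07). CDC25A, the phosphatase that activates CDK2, rose by 0.60 in HepG2, where its siNC mean was 9.20 ± 0.18 and its siFASRL mean 14.4 ± 0.6 (SD, n = 3). Its LM3 rise was 0.83, with means of 16.3 ± 0.26 under siNC and 29.8 ± 0.78 under siFASRL. CDK4, the other cyclin D kinase, was at 53.7, 55.6 and 56.8 in HepG2 siNC and 56.2, 54.2 and 56.0 in HepG2 siFASRL, where the groups overlapped and the change was 0.0035 (limma, adjusted p = 0.95), but -0.13 and called under quantile normalization (limma, adjusted p = 0.0472). It rose in LM3 by 0.28, to 121% of siNC.

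Cyclin D3, encoded by CCND3 (chromosome 6, 41934933 to 42050035), had the lowest interaction p of the members. Its levels were 57.0, 54.0 and 60.7 in HepG2 siNC and 140.1, 124 and 123 in HepG2 siFASRL, against 87.0, 85.6 and 85.5 in LM3 siNC and 74.5, 81.0 and 81.6 in LM3 siFASRL. The HepG2 groups lay far apart with siFASRL high, and the LM3 groups lay close with siFASRL low, without overlap. It rose in HepG2 by 1.16, while LM3 had -0.12 (limma, adjusted p = 0.0651), which was called under quantile normalization (-0.23) and with no filter on low values (limma, adjusted p = 0.0443), but was -0.0048 under median-of-ratios scaling and -0.0017 with centred libraries.

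Cyclin E2, encoded by CCNE2 and the activator of CDK2 at S-phase entry, fell furthest of the members in each line. HepG2 levels were 12.8, 10.8 and 13.2 under siNC and 4.29, 4.58 and 4.73 under siFASRL, and LM3 levels were 14.0, 10.4 and 11.1 and 5.78, 5.33 and 5.20. The groups did not overlap, and 37.0% and 45.9% of the siNC level remained, with changes of -1.26 ± 0.077 (SE) and -0.99 ± 0.10 (SE) (limma, adjusted p = 4.97e-07 and 2.84e-05). CCNE1, its paralog, changed by -0.45 in HepG2, where siNC libraries had 13.4, 12.3 and 11.9 and siFASRL libraries 8.88, 8.95 and 8.96, and had 31.7, 35.0 and 32.9 and 33.0, 31.8 and 33.3 in the LM3 groups, which overlapped. Reads of such paralogs can be split between them by RSEM.

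E2F1 (chromosome 20, 33675477 to 33686385), an activator of S-phase genes, was at 11.5, 14.0 and 11.5 in HepG2 siNC and 7.04, 7.85 and 7.81 in HepG2 siFASRL. In LM3 it was at 29.8, 39.1 and 37.7 and 30.6, 30.4 and 29.5. The HepG2 groups were apart and the LM3 groups overlapped through siNC replicate 1, and the changes were -0.63 ± 0.082 (SE) and -0.22 ± 0.094 (SE) (limma, adjusted p = 5.59e-05 and 0.0608). Without LM3 siNC replicate 1, the LM3 change was -0.34 (limma, adjusted p = 1.03e-04), and it was -0.27 under quantile normalization (limma, adjusted p = 0.0369), but -0.10 under median-of-ratios scaling and -0.099 with centred libraries, where it was not called. E2F2, a related activator, fell in both lines, to 49.5% of siNC in HepG2 and 63.3% in LM3.

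Inhibitors among the members fell too. CDKN1B, which encodes p27 and restrains CDK2, was at 54.1, 55.9 and 51.9 in HepG2 siNC and 35.9, 41.5 and 41.1 in HepG2 siFASRL, and at 23.9, 24.6 and 24.6 and 22.1, 21.7 and 21.2 in the LM3 groups. The groups did not overlap in either line, and the changes were -0.44 and -0.16, the LM3 one of which was not called under median-of-ratios scaling (-0.049) or with centred libraries (-0.043). CDKN2C, an inhibitor of CDK4 and CDK6, changed by -0.58 in HepG2, with means of 34.4 ± 2.84 under siNC and 22.6 ± 0.89 under siFASRL (SD, n = 3). In LM3 its means were 27.6 ± 1.76 and 16.1 ± 0.44, a change of -0.74. RB1, the pocket protein gene, had 0.026 in HepG2 (-0.036 under quantile normalization) and changed by -0.21 in LM3, a call that both LM3 scalings removed.

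**Figure D3:**
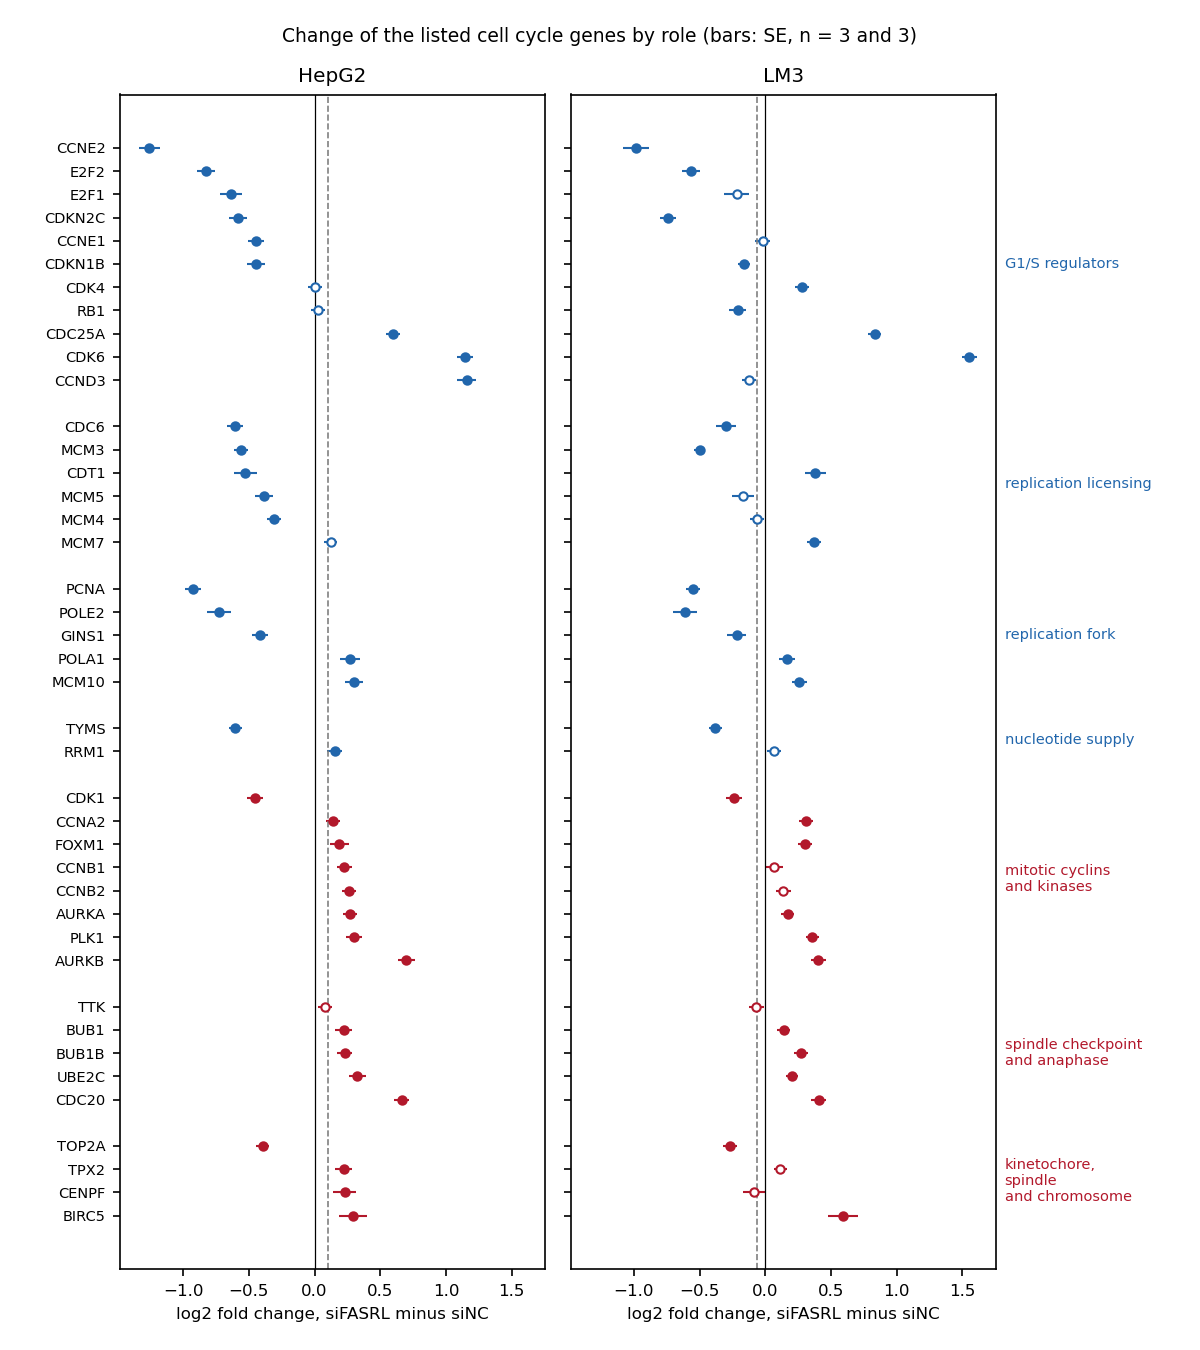
Log2 fold change of the 41 listed members in HepG2 (left) and LM3 (right), grouped by role, with SE bars, filled points where adjusted p was under 0.05, and a dashed line at the median of all tested genes. Blue G1/S genes run from -1.26 for CCNE2 to 1.16 for CCND3 in HepG2, and red G2/M genes lie to the right of 0 apart from CDK1 and TOP2A in HepG2 and these genes, TTK and CENPF in LM3 as deposited, where TTK and CENPF turned positive under median-of-ratios scaling and CCNB1 negative under quantile normalization.

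Of 6 listed licensing genes, 5 fell in HepG2 (83.3%, beside 44.3% of tested genes) and none rose. In LM3, 2 fell and 2 rose (33.3% each, beside 43.5% lower and 33.9% higher of tested genes). Under median-of-ratios scaling 1 fell and 2 rose in LM3, and under quantile normalization 4 fell and 2 rose. The LM3 median of these 6 genes was -0.12, and 0.0036 with centred libraries. MCM3, a subunit of the replicative helicase, was at 90.0, 89.3 and 89.4 in HepG2 siNC, 62.9, 59.97 and 58.6 in HepG2 siFASRL, 84.1, 83.2 and 84.0 in LM3 siNC and 59.1, 58.8 and 58.8 in LM3 siFASRL. Its groups were well apart in both lines, with changes of -0.56 and -0.50. CDC6, the loader of the helicase, changed by -0.60 in HepG2 and -0.30 in LM3, and the LM3 call was lost under both scalings. MCM4 changed by -0.31 and MCM5 by -0.38 in HepG2, and their LM3 groups overlapped, at -0.064 and -0.17, and MCM4 was at 0.052 under median-of-ratios scaling. Quantile normalization gave LM3 calls for both, at -0.16 and -0.27.

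CDT1, which loads the helicase with CDC6 and is destroyed in S phase, was called in opposite directions in the lines. HepG2 levels were 39.6, 51.0 and 46.0 under siNC and 29.6, 32.9 and 31.0 under siFASRL, and LM3 levels were 33.4, 40.5 and 39.1 and 53.0, 48.2 and 46.6. Each siFASRL library was below the siNC libraries in HepG2 and above them in LM3, with changes of -0.53 ± 0.089 (SE) and 0.38 ± 0.082 (SE) (limma, adjusted p = 3.35e-04 and 0.00262). MCM7, another helicase subunit and the licensing gene with the highest mean level, was at 107, 111 and 113 in HepG2 siNC and 122, 120.0 and 118 in HepG2 siFASRL, and in LM3 at 180.3, 198 and 197 under siNC and 248, 248 and 249 under siFASRL, a rise of 0.37. Its HepG2 groups did not overlap, but the change of 0.12 had an adjusted p of 0.0508 from limma. It was called with no filter on low values (limma, adjusted p = 0.0451), with a filter at 5 (limma, adjusted p = 0.0455), in the joint fit (limma, adjusted p = 0.029) and with centred libraries (0.16; limma, adjusted p = 0.0163), and turned to -0.052 under quantile normalization.

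At the fork, PCNA (chromosome 20, 5114953 to 5126622), the sliding clamp whose window is printed above, was at 157, 158 and 165 in HepG2 siNC and 78.1, 88.2 and 85.0 in HepG2 siFASRL. LM3 levels were 110.4, 112 and 114 under siNC and 73.5, 76.4 and 79.1 under siFASRL. Levels were lower in each siFASRL library of both lines, at 52.3% and 68.1% of siNC, with changes of -0.93 ± 0.062 (SE) and -0.55 ± 0.05 (SE) (limma, adjusted p = 8.46e-07 and 1.75e-05). POLE2, a subunit of the leading-strand polymerase, had low levels of 4.65, 4.86 and 5.94 in HepG2 siNC and 2.69, 3.04 and 2.40 in HepG2 siFASRL, and of 11.4, 11.0 and 11.6 and 6.07, 7.01 and 8.28 in the LM3 groups. It changed without overlap by -0.73 and -0.61, and a filter at a level of 5 removed it from the HepG2 test. GINS1, of the helicase complex, changed by -0.42 and -0.22, whereas MCM10, which helps to start the fork, rose by 0.30 and 0.26 and POLA1, the primase-associated polymerase, by 0.27 and 0.16. The LM3 calls of GINS1 and POLA1 were each lost under quantile normalization, that of GINS1 also under both other scalings, and that of POLA1 without any 1 of 5 of the 6 LM3 libraries.

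For nucleotide supply, TYMS, which makes thymidylate, was at 83.0, 82.3 and 83.2 in HepG2 siNC, 53.3, 54.8 and 54.4 in HepG2 siFASRL, 129, 133 and 126 in LM3 siNC and 96.7, 100.4 and 100.2 in LM3 siFASRL. Groups were apart in both lines, with changes of -0.60 and -0.38. RRM1, the large subunit of ribonucleotide reductase, was at 271, 271 and 292 in HepG2 siNC and 306, 309 and 311 in HepG2 siFASRL, and at 97.2, 98.1 and 96.9 and 98.4, 99.6 and 108 in LM3. It rose in HepG2 by 0.15, a call that ended without any 1 of 4 libraries (HepG2 siFASRL replicates 2 and 3 and HepG2 siNC replicates 1 and 2, with changes of 0.13 to 0.15) and under quantile normalization, and LM3 had 0.063.

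**Figure D4:**
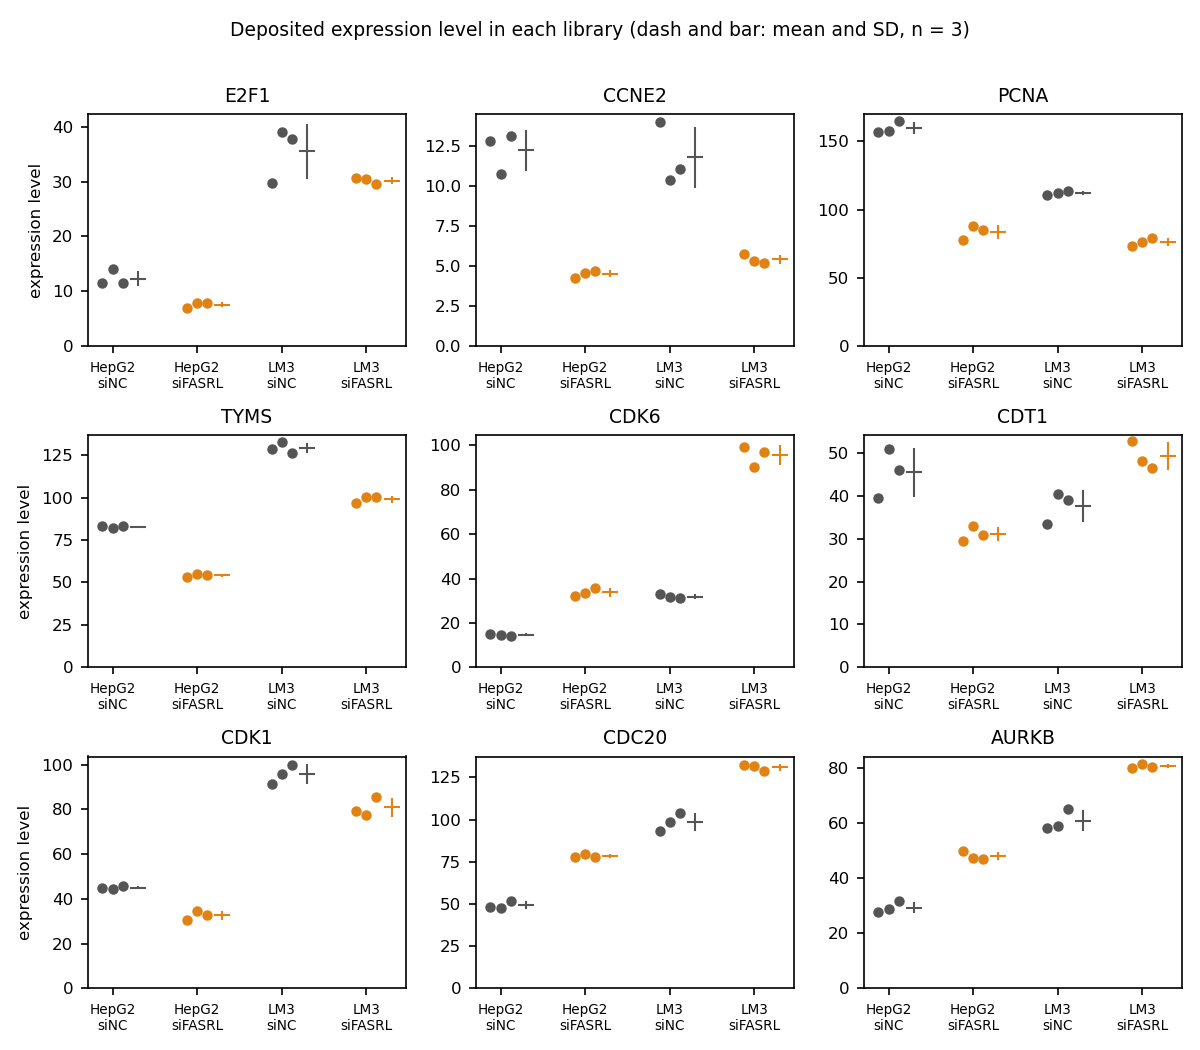
Deposited expression level of 9 members in each library (points) with mean and SD (dash and bar, n = 3), siNC in grey and siFASRL in orange, on axes that start at 0. PCNA has means of 160.1 under siNC and 83.8 under siFASRL in HepG2, and 112 and 76.3 in LM3, CDT1 moves in opposite directions in the lines, and CDC20 and AURKB are above siNC in each siFASRL library.

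Among 8 listed mitotic cyclins and kinases, 7 rose and 1 fell in HepG2 (87.5% higher, beside 44.8% of tested genes). In LM3, 5 rose and 1 fell (62.5% higher, beside 33.9%), and 7 were higher and none lower under median-of-ratios scaling (87.5%, beside 42%). Quantile normalization left 2 higher and 1 lower in HepG2 (25% higher, beside 43.7% of tested genes). The gene that fell in both lines was CDK1, the kinase that drives entry into mitosis. It was at 45.0, 44.3 and 45.5 in HepG2 siNC and 30.3, 34.7 and 32.6 in HepG2 siFASRL. Its LM3 levels were 91.1, 95.9 and 99.98 under siNC and 79.3, 77.7 and 85.4 under siFASRL. All 3 siFASRL libraries were below the siNC libraries in each line, with changes of -0.46 ± 0.062 (SE) and -0.24 ± 0.06 (SE) (limma, adjusted p = 7.88e-05 and 0.00551), and the LM3 call was lost under median-of-ratios scaling and with centred libraries (-0.12 in both). Its partner cyclin B1, encoded by CCNB1, went the other way in HepG2, from 54.3, 55.6 and 58.2 to 64.3, 68.4 and 64.2, a rise of 0.22, and had 87.3, 79.2 and 84.1 and 81.5, 88.4 and 92.9 in LM3, where the groups overlapped.

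Aurora kinase B, encoded by AURKB and part of the chromosomal passenger complex, was at 27.6, 28.7 and 31.7 in HepG2 siNC, 49.9, 47.5 and 47.2 in HepG2 siFASRL, 58.4, 59.1 and 65.3 in LM3 siNC and 80.2, 81.6 and 80.4 in LM3 siFASRL. It was higher in each siFASRL library, by 0.70 ± 0.065 (SE) and 0.40 ± 0.057 (SE) (limma, adjusted p = 6.26e-06 and 2.41e-04). Aurora kinase A, which matures spindle poles, rose by 0.27 in HepG2, with means of 67.9 ± 2.51 under siNC and 81.9 ± 1.41 under siFASRL (SD, n = 3). Its LM3 means were 80.1 ± 2.79 and 90.2 ± 0.56, a rise of 0.17. PLK1, a mitotic kinase, rose by 0.30 and 0.36, FOXM1, a factor for mitotic genes, by 0.19 and 0.30, and cyclin A2 (CCNA2) by 0.14 and 0.31. Cyclin B2 (CCNB2) rose by 0.26 in HepG2 and had 0.14 in LM3. Quantile normalization removed the HepG2 calls of CCNA2, CCNB1, FOXM1, PLK1 and AURKA and the LM3 call of AURKA, and median-of-ratios scaling that of FOXM1 in HepG2. The HepG2 call of FOXM1 was lost without any 1 of 3 libraries and that of CCNA2 without any 1 of 4, and CCNB2 was called in LM3 under median-of-ratios scaling (0.25), with centred libraries (0.26), in the joint fit and without siFASRL replicate 1.

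The spindle checkpoint and anaphase list had 4 of 5 listed genes higher and none lower in each line. This is 80%, beside 44.8% of tested genes in HepG2 and 33.9% in LM3. Under quantile normalization 2 were higher in LM3 (40%), near the 37.6% of tested genes. CDC20, the activator of the anaphase-promoting complex, was at 48.2, 47.4 and 52.0 in HepG2 siNC and 77.7, 79.6 and 78.0 in HepG2 siFASRL, and at 93.2, 98.7 and 104 and 133, 132 and 129 in the LM3 groups. The groups were apart in both lines, with rises of 0.66 ± 0.057 (SE) and 0.41 ± 0.056 (SE) (limma, adjusted p = 3.91e-06 and 1.96e-04). UBE2C, the E2 enzyme of that complex, rose from 44.6, 43.1 and 47.9 to 54.3, 59.8 and 56.7 in HepG2 and from 133, 135 and 131 to 153, 155 and 153 in LM3. BUB1 and BUB1B, checkpoint kinases at the kinetochore, rose by 0.22 and 0.23 in HepG2 and 0.14 and 0.27 in LM3, and TTK, the kinase upstream of them, had 0.08 and -0.07 with overlapping groups, and was above 0 in LM3 under each other scaling (0.026 to 0.050). In LM3 the calls of BUB1 and UBE2C were lost under quantile normalization, and that of BUB1 without any 1 of 5 of the 6 libraries.

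Of the 4 listed spindle and chromosome genes, TOP2A, which untangles DNA before anaphase, fell in both lines. It was at 68.7, 69.0 and 71.7 in HepG2 siNC, 52.6, 52.4 and 53.4 in HepG2 siFASRL, 101, 91.6 and 93.3 in LM3 siNC and 77.3, 78.4 and 80.6 in LM3 siFASRL, without overlap, and changed by -0.40 and -0.27. BIRC5, which encodes survivin of the passenger complex, was at 17.0, 21.2 and 17.1 in HepG2 siNC, 19.4, 24.4 and 24.6 in HepG2 siFASRL, 17.1, 22.6 and 24.4 in LM3 siNC and 33.1, 32.4 and 31.6 in LM3 siFASRL. The HepG2 groups overlapped and the LM3 groups did not, with rises of 0.29 and 0.59, and the HepG2 call ended without any 1 of 4 libraries (HepG2 siFASRL replicates 2 and 3, HepG2 siNC replicates 1 and 3), with changes of 0.24 to 0.25. TPX2, an activator of Aurora A, rose by 0.22 in HepG2, with siNC at 62.1, 60.8 and 67.1 and siFASRL at 78.9, 73.0 and 70.5. In LM3 it had 0.11, and 0.15 without siNC replicate 1 (limma, adjusted p = 0.00903). CENPF, a kinetochore protein, rose by 0.23 in HepG2 with overlapping groups and had -0.085 in LM3, where it was at 0.031 under median-of-ratios scaling. Quantile normalization removed the HepG2 calls of TPX2 and CENPF, and that of CENPF was also lost without any 1 of 3 libraries.

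The lines were compared by the interaction of line and siRNA over all 12 libraries. It was called for 19 of 41 members, beside 46.7% of 8285 tested genes, and for 15 of 24 G1/S and 4 of 17 G2/M members. In 13 of those 15 G1/S members the LM3 change was above the HepG2 change. Of the 3868 genes called, 1612 had it above and 2256 below. The CCND3 change in LM3 minus that in HepG2 was -1.28 ± 0.089 (SE; limma, adjusted p = 1.61e-07), and that of CDT1 was 0.91 ± 0.13 (SE; limma, adjusted p = 9.61e-05). For CCNE1 it was 0.43, for CDK6 0.41 and for PCNA 0.38. In both lines 10 G1/S members fell (CCNE2, CDKN1B, CDKN2C, E2F2, CDC6, MCM3, GINS1, PCNA, POLE2 and TYMS) and 10 G2/M members rose (CCNA2, FOXM1, PLK1, AURKA, AURKB, BUB1, BUB1B, CDC20, UBE2C and BIRC5). These are 41.7% of G1/S and 58.8% of G2/M members, where 36% of the 7349 genes tested in both lines fell in both and 29.6% rose in both. Under median-of-ratios scaling 7 G1/S members remained lower in both, without CDKN1B, CDC6 and GINS1 (29.2%, beside 31.9% of all). The higher share of G1/S members was thus not kept under that scaling, while 12 G2/M members were higher in both (70.6%, beside 35.2%). Under quantile normalization 12 G1/S members were lower in both (50%, beside 27.6% of all) and 4 G2/M members higher (23.5%, beside 31.6%).

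Other cell cycle genes, outside the 60 members, were grouped by function. Beside each list stand the shares of all tested genes, 44.3% lower and 44.8% higher in HepG2 and 43.5% and 33.9% in LM3. Of 21 listed of 37 other replication genes, 16 fell and 5 rose in HepG2 and 11 fell and 4 rose in LM3, with medians of -0.35 and -0.18, but 5 were lower and 5 higher in LM3 under median-of-ratios scaling (median -0.065) and with centred libraries. LIG1, which joins Okazaki fragments, was at 19.7, 21.4 and 21.6 in HepG2 siNC, 9.83, 10.0 and 8.89 in HepG2 siFASRL, 14.1, 12.5 and 12.5 in LM3 siNC and 6.92, 7.35 and 6.68 in LM3 siFASRL, and its groups were apart in both lines. Of 26 listed of 44 other mitotic genes, 21 rose and 3 fell in HepG2 and 12 rose and 6 fell in LM3, with medians of 0.30 and 0.11, and under quantile normalization 8 were higher and 7 lower in LM3. ZW10, a checkpoint protein of the kinetochore, rose by 1.25 and 0.90, and UBE2S, the chain-extending E2 of the anaphase-promoting complex, by 0.90 and 1.10.

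Other CDK inhibitors and pocket proteins, 7 listed of 8, had 4 lower (57.1%) and 3 higher (42.9%) in each line, beside 44.3% and 44.8% of tested genes in HepG2 and 43.5% and 33.9% in LM3. These shares of tested genes are the reference for each list here. CDKN1A, which encodes p21, was at 165, 159.8 and 160.4 in HepG2 siNC and 91.0, 84.7 and 85.0 in HepG2 siFASRL, and at 13.6, 12.4 and 10.9 and 2.37, 2.42 and 2.08 in the LM3 groups, without overlap in either line. Its changes were -0.89 and -2.01 (limma, adjusted p = 5.61e-07 and 3.63e-07). CDKN1C, which encodes p57, changed by -1.07 and -1.06. Of 8 listed of 13 other E2F, DP, MYB and MuvB genes, 4 fell and 4 rose in HepG2 (50% each) and 3 fell and 3 rose in LM3 (37.5% each), near the shares of tested genes, where the median of -0.032 was above 0 under each other scaling (0.071 to 0.15). The repressor E2F6 changed by -0.64 and -0.39 and the E2F partner TFDP2 by -0.41 and -0.42.

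All 4 listed checkpoint kinase genes and partners of 10 (ATM, ATR, RAD9A and TOPBP1) fell in both lines (3 of them in LM3 under quantile normalization or with centred libraries), with TOPBP1, which activates ATR, at -0.66 in HepG2 and the kinase ATM at -0.48 in LM3. Among 9 listed of 15 subunits of the anaphase-promoting complex, 4 rose (44.4%, beside 44.8% of tested genes in HepG2 and 33.9% in LM3) and 1 fell in each line, and 7 were higher and none lower in LM3 under median-of-ratios scaling, led by ANAPC15 in HepG2 (0.64) and ANAPC10 in LM3 (0.63). Among 8 listed of 13 cohesin and condensin genes, 3 rose and 2 fell in HepG2 and 3 rose and 1 fell in LM3 (37.5% higher in each, beside 44.8% and 33.9% of tested genes), where quantile normalization gave 3 higher and 3 lower and turned the median from 0.074 to -0.025, with the cohesin subunits STAG2 at 0.36 in HepG2 and STAG1 at 0.37 in LM3. In HepG2, 5 of these genes were higher with centred libraries (62.5%, beside 48.7% of tested genes) and 2 under median-of-ratios scaling (25%, beside 44.3%).

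**Figure D5:**
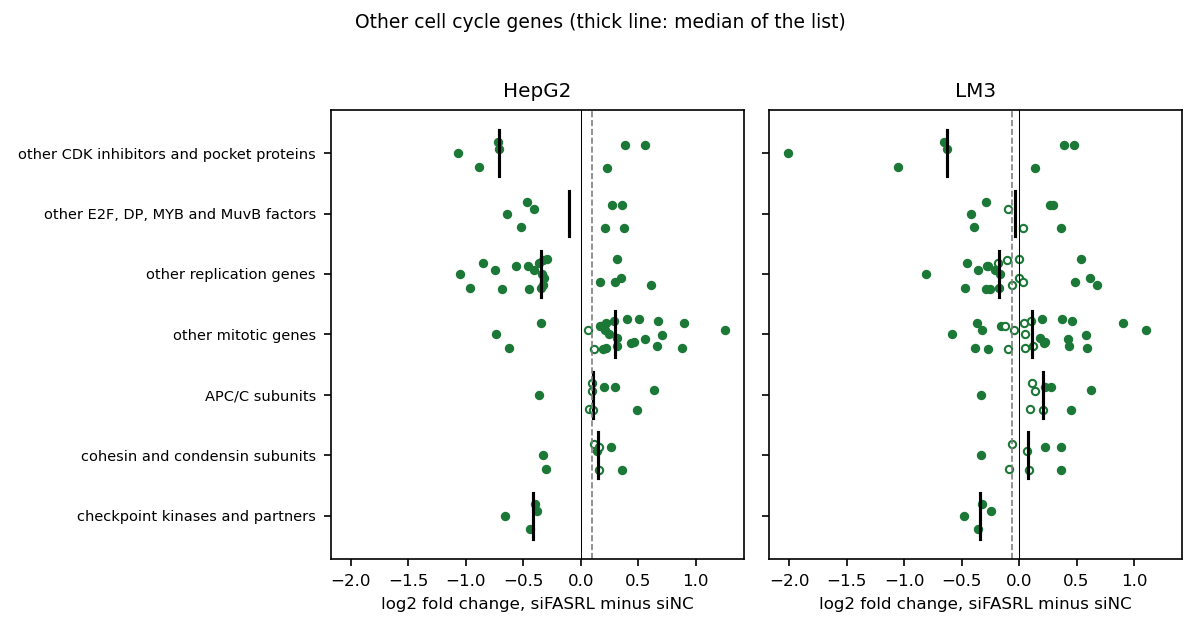
Log2 fold change of listed cell cycle genes outside the 60 members, by list, in HepG2 (left) and LM3 (right), filled where adjusted p was under 0.05, with a thick line at each list's median and a dashed line at the median of all tested genes. Other replication genes have medians of -0.35 and -0.18 and other mitotic genes 0.30 and 0.11, in HepG2 and LM3.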

How the data were processed

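The authors' levels came from RSEM 1.2.12, run on Bowtie2 2.2.5 alignments to coding transcripts. SOAPnuke 1.5.2 was their read filter and HISAT2 2.0.4 their genome mapper. The deposited values are the normalized RSEM signal per gene with 2 decimals, not read numbers, so the depth is unknown. Because the files hold normalized levels, limma 3.58.1 in R 4.3.3 was used for each line on log2(value + 1), which understates changes of low genes, for genes at 1 or more in at least 3 of 6 libraries, with Benjamini-Hochberg adjustment over all tested genes at 0.05; the interaction was fitted over 12 libraries. Alternatives were a pseudocount of 0.1, no filter or a filter at 5, quantile, median-of-ratios and median-centred scaling, a replicate block, a joint fit and leaving out each library. The limma steps were tested on simulated data. With 3 against 3 libraries, an exact permutation test of 1 gene cannot go below p = 0.1. Tables and figures used Python 3.11.15, pandas 2.3.3 and matplotlib 3.10.9. A file of 1 library also held 6 columns of other libraries, which were not used. Symbols turned into dates (17) were restored by gene ID, none a member. The labels name hg19, but the chromosome identifiers in the files are those of GRCh38; coordinates and promoters are RefSeq's for GRCh38.p14, matched by gene ID. Members and lists were chosen with earlier results of these data known. Genes named were 8 chosen ones (MKI67, PCNA, CCND1, CDK4, CDKN1B, CDK1, CCNB1 and E2F1), the 5 largest called changes in each direction and line, the highest mean in each role, the 5 lowest interaction p and the largest called change of each other list in each line; other members are named to account for the list, after their values were seen.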

Additional observations from a re-analysis of the deposited data

Results flagged for a closer look

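For 19 of 41 members (46.3%, beside 46.7% of the 8285 tested genes) the change in LM3 differed from that in HepG2 by the interaction term (limma, adjusted p under 0.05, the largest 0.04996 for CDK1). Values here are the LM3 change minus the HepG2 change on the log2 scale. Among G1/S regulators they were -1.28 for CCND3, -0.24 for RB1, 0.23 for CDC25A, 0.26 for E2F2, 0.28 for CDK4, 0.28 for CDKN1B, 0.41 for CDK6, 0.42 for E2F1 and 0.43 for CCNE1. Among licensing, fork and nucleotide genes they were 0.25 for MCM4, 0.25 for MCM7, 0.30 for CDC6, 0.91 for CDT1, 0.38 for PCNA and 0.22 for TYMS. Of the G2/M members, AURKB had -0.30, CDC20 -0.26, CCNA2 0.17 and CDK1 0.21. CDT1 was the member called lower in HepG2 and higher in LM3. The cause of these differences was not tested.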

How the results depend on the processing

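Counts and medians of members were recomputed under 14 alternatives in each line and 19 for the difference between lines. The number of members differing between lines was 19 and ranged from 14 to 20. Quantile normalization gave 12 members higher in HepG2 in place of 20, with 2 lower and 1 higher past a log2 fold change of 1 in place of 1 and 2, and medians of -0.47 (G1/S) and 0.13 (G2/M) in HepG2 and -0.19 and 0.060 in LM3. Median-of-ratios scaling gave 8 members lower in LM3 in place of 13, with LM3 medians of -0.051 and 0.29. Centring each library on its median, chosen after seeing the data, gave 8 members lower in LM3, LM3 medians of -0.046 and 0.29, and HepG2 medians of -0.39 and 0.27. A pseudocount of 0.1 gave a HepG2 G1/S median of -0.45 and put 1 LM3 member lower past the fold threshold in place of 0.

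Without 1 replicate at a time, HepG2 members higher were 15 (without siNC replicate 1) to 19, with calls lost among RRM1, CCNA2, FOXM1, CENPF and BIRC5, and 17 stayed lower; LM3 had 12 to 15 lower and 15 to 18 higher, with calls lost among RB1, GINS1, POLA1 and BUB1 and gained for E2F1, MCM5, TPX2 (without siNC replicate 1) and CCNB2 (without siFASRL replicate 1). The G1/S median ranged from -0.44 to -0.41 in HepG2 and from -0.18 to -0.14 in LM3, and the LM3 members lower past the fold threshold were 0 or 1 (1 without siFASRL replicate 1, siNC replicate 2 or siNC replicate 3). Over the 41 listed members, signs turned for CDK4 in HepG2 (-0.13 under quantile normalization, -0.0023 under median-of-ratios scaling and -0.018 to 0.022 without 1 replicate, negative without siFASRL replicate 1 or 3 or siNC replicate 1), MCM7 (-0.052) and RB1 (-0.036) in HepG2 (quantile), RRM1 (-0.049) and CCNB1 (-0.047) in LM3 (quantile), MCM4 (0.052 under median-of-ratios scaling, 0.056 centred), TTK (0.041, 0.050 and, under quantile normalization, 0.026) and CENPF (0.031, 0.035 and, without siNC replicate 1, 0.013) in LM3, and CCNE1 in LM3 (0.095 under median-of-ratios scaling, 0.0999 centred and -0.052 to 0.018 without 1 replicate, positive without siNC replicate 2). CDK4 in HepG2 under quantile normalization was called (limma, adjusted p = 0.0472), and the other turned values were not. The cause was not tested.

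Replicate numbers did not pair the libraries throughout: deviations of same-numbered libraries correlated at 0.32, 0.37 and -0.20 in HepG2 and -0.080, 0.12 and -0.17 in LM3. The highest correlation with a library of another number was 0.30, -0.22 and 0.29 in HepG2 and 0.12, 0.066 and 0.19 in LM3. Whether replicates were paired cannot be told from these values. With the replicate number as a block, 17 members were lower and 20 higher in HepG2, 13 and 15 in LM3, and 16 differed between lines; POLA1 and BUB1 were no longer called in LM3. Depth could not be used to set limits, since the values are not read numbers.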
